A study of Mus musculus with 8 samples.

Results

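The genes described here were 10 members of the piRNA pathway and of nuage, chosen by symbol from the 25239 gene symbols counted in E14.5 ovaries: the Piwi genes *Piwil1*, *Piwil2* and *Piwil4*, the Tudor genes *Tdrd1*, *Tdrd5* and *Tdrd9*, the cofactors *Mov10l1*, *Mael* and *Asz1*, and *Tex19.1*. They were chosen with earlier results of these data known. All 10 symbols were found, and all 10 passed the filter on low counts that left 14249 genes for testing. RNA-Seq was performed on whole fetal mouse ovaries on a C57BL/6 background, each library a pool of 2 ovary pairs. The 4 control libraries came from embryos homozygous for the floxed allele (*Bmpr1a* fl/fl), and the 4 mutant libraries, called *Bmpr1a*-cKO, from embryos that carried *Oct4-Cre* Cre/WT besides *Bmpr1a* fl/fl. The dams of both genotypes had been injected with 1 mg 4-hydroxytamoxifen and 0.5 mg progesterone on 3 days, first at 9.5 dpc, then at 10.5 dpc and last at 11.5 dpc, so both groups were exposed to the drugs and only the mutant carried the inducible Cre, whose own effect cannot be told apart from that of the deletion. *Oct4-Cre* acts in germ cells, so that the somatic cells of the mutant ovary kept *Bmpr1a*, which encodes a BMP type 1 receptor. The comparison asked which transcripts of these genes differed when germ cells lost this receptor.

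piRNAs are small RNAs of the germline that guide Piwi proteins to transcripts of transposable elements, which are then cleaved or, in the nucleus, silenced through DNA methylation. Precursor transcripts are processed in nuage, a cytoplasmic material lying between mitochondria, where the DEAD-box helicase DDX4 and Tudor domain proteins gather Piwi proteins by their methylated arginines. In the mouse the pathway is best known from the fetal testis, where its loss derepresses LINE1 and IAP elements and stops spermatogenesis. Several of its genes are also transcribed in fetal ovarian germ cells as these cells go from pluripotency-associated expression into meiosis.

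The start regions of the genes that differed are shown first, as sequences that the choice of genes had not used. The RefSeq promoter table on GRCm38.p6, the mm10 assembly, held 9 of the 10 members with 12 promoters, each running from 250 bases before to 50 bases after a transcript start. The 250 bases before the first listed start of each member that was a DEG are printed 5′ to 3′ on the strand of the gene. Capitals mark the E-box CACGTG, a palindrome that MYC, MAX and related helix-loop-helix proteins are known to bind.
*Mael*, chr1:166238745-166238994, minus strand: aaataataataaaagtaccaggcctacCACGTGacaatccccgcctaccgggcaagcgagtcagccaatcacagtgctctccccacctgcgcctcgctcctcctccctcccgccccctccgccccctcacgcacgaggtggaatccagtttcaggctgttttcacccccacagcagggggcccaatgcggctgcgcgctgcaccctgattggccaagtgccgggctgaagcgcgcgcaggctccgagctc
*Mov10l1*, chr15:88982744-88982993, plus strand: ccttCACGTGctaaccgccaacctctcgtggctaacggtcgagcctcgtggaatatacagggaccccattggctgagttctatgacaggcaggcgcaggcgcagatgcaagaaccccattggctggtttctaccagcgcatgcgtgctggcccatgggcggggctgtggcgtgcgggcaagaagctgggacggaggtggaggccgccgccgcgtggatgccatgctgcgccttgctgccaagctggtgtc
*Tdrd9*, chr12:111971309-111971558, plus strand: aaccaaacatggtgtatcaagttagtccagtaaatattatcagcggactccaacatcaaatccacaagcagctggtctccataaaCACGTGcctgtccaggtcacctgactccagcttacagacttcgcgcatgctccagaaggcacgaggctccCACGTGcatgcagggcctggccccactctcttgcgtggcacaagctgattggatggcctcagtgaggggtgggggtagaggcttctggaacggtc
*Tdrd5*, chr1:156303349-156303598, minus strand: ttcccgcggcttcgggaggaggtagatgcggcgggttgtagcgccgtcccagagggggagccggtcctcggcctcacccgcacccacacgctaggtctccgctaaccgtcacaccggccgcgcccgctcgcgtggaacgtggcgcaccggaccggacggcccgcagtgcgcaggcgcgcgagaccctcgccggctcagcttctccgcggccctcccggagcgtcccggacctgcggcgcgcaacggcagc
*Tex19.1*, chr11:121145893-121146142, plus strand: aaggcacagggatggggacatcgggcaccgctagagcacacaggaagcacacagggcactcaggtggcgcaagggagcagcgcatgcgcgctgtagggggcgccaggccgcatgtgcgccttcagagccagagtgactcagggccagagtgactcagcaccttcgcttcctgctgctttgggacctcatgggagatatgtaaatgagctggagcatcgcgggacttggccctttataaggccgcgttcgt
*Piwil1*, chr5:128735996-128736245, plus strand: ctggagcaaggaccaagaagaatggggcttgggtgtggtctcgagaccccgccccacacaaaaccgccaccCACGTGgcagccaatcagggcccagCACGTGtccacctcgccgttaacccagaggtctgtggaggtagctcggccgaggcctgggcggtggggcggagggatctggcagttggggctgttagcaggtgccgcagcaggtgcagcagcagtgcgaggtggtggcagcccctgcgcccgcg
The first 3 genes were lower in the *Bmpr1a*-cKO, and each held an E-box. It began 223 bases before the start in *Mael*, 246 in *Mov10l1*, and 165 and 95 in *Tdrd9*. Of the other 3, which were higher, *Piwil1* held 2 E-boxes, 179 and 154 bases before its start, and *Tdrd5* and *Tex19.1* held none. This RefSeq start of *Piwil1* lies inside the gene as placed by GENCODE, which begins at chr5:128702524. Among the members that were not DEGs, *Tdrd1* held an E-box and *Piwil4* and *Asz1* did not, so that 5 of 9 members held it in at least 1 promoter. The E-box was present in 7.15% of the 32851 promoters of the same length, and in 11.5% of the 11262 tested genes with a promoter. Over all tested genes it was held by 7.88% of the genes that were downregulated, 12.4% of those upregulated and 11.6% of the rest, so over all tested genes the E-box was not more frequent among those that were lower in the mutant. Among the 17 other piRNA pathway genes described later that had a promoter, 6 held it, 1 of 4 that were downregulated, 1 of 2 that were upregulated and 4 of 11 that were not DEGs.

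Other motifs searched on both strands over the 300 bases were GCGGGAA, the core of E2F6 sites, present in 4.6% of promoters, CCTCAG, part of a published STRA8 motif, present in 26.8%, and AACTGNC, the core of MYB sites, present in 12.8%. GCGGGAA lay in *Tdrd5* alone among the members. CCTCAG was found in *Tdrd9*, *Tdrd1*, *Piwil1*, *Mov10l1* and *Asz1*, and AACTGNC in *Piwil1*. No E-box shared a base with a match to another motif. *Tdrd5* had by far the densest CpG content, with 48 CpG in 300 bases, more than or equal to 99% of promoters, against a median of 7 over all promoters, and *Tdrd9* had 10. The other 4 printed genes had 16 to 24. A match of letters is a description and was not tested as a binding site.

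The libraries held 8562961 to 15365052 counts. In the whole ovary *Bmpr1a* itself was at 218 ± 15.3 CPM (counts scaled to library size, TMM-normalised) in control and 195 ± 10.5 CPM in *Bmpr1a*-cKO libraries (mean ± SD, n = 4, Log2FC = -0.16, FDR = 0.0692 by edgeR), so that this count, which the somatic cells also feed and which is not resolved by exon, did not check the genotype labels. Of 7 germ cell markers 6 were in the files, none at 0, and 3 were DEGs, all upregulated (*Dazl*, *Nanos3* and *Kit*), whereas *Ddx4*, *Sall4* and *Rbm46* were not, with a Log2FC of 0.11, 0.34 and -0.31. Their summed level was 595 to 803 CPM in control and 744 to 1101 CPM in *Bmpr1a*-cKO libraries, a ratio of the means of 1.40 (exact permutation test, two-sided, p = 0.0571, 0.114 adjusted over 12 quantities). *Dazl*, the most abundant of them, had 327 ± 45.3 and 506 ± 95.1 CPM, and *Kit* had 86.5 ± 11.3 and 150.2 ± 10.3 CPM. Of the other cell types, the summed markers of pregranulosa cells were at 683 to 736 CPM in control and 487 to 624 CPM in *Bmpr1a*-cKO libraries, with 1 of 5 genes a DEG. The 4 genes listed for Sertoli cells, a cell type of the testis, summed to 14.1 to 16.3 CPM and 10.8 to 11.6 CPM, with 1 of 4 a DEG. Most of this sum came from *Sox9* and *Cyp26b1*, and it does not show that these ovaries held Sertoli cells. The summed macrophage markers were at 22.0 to 27.8 CPM and 28.5 to 36.2 CPM, with 2 of 4 DEGs. These 3 lists did not overlap between genotypes (exact permutation test, two-sided, p = 0.0286 each, the smallest that 4 against 4 libraries allow, 0.0858 adjusted), and the lists of steroidogenic cells, stroma, endothelium, erythroid cells (*Hba-a1* and *Hbb-bs* at 0) and mesonephros overlapped. In bulk ovary RNA, fewer or more cells of a type and less or more RNA per cell cannot be told apart.

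Expression of the piRNA pathway genes moved in both directions in the *Bmpr1a*-cKO. With DEGs defined by an absolute Log2FC above 0.5 and an FDR below 0.05 (edgeR, adjusted over 14249 genes), 6 of the 10 members were DEGs, where 10.2% of all genes tested were. *Tdrd5*, *Piwil1* and *Tex19.1* were upregulated, as were 6.11% of all genes. *Mael*, *Tdrd9* and *Mov10l1* were downregulated, as were 4.06% of all genes. *Piwil2*, *Piwil4*, *Tdrd1* and *Asz1* did not pass. The same 6 had an FDR below 0.05, as did 29.8% of all genes. The median Log2FC of the members was 0.02 and that of all genes tested was 0.00, whereas the median of the absolute Log2FC was 0.59 for the members and 0.17 for all genes. The list was chosen with earlier results of these data known, and all genes tested include those of somatic cells. These shares and medians therefore describe the list and are no test of the pathway.

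**Figure D1:**
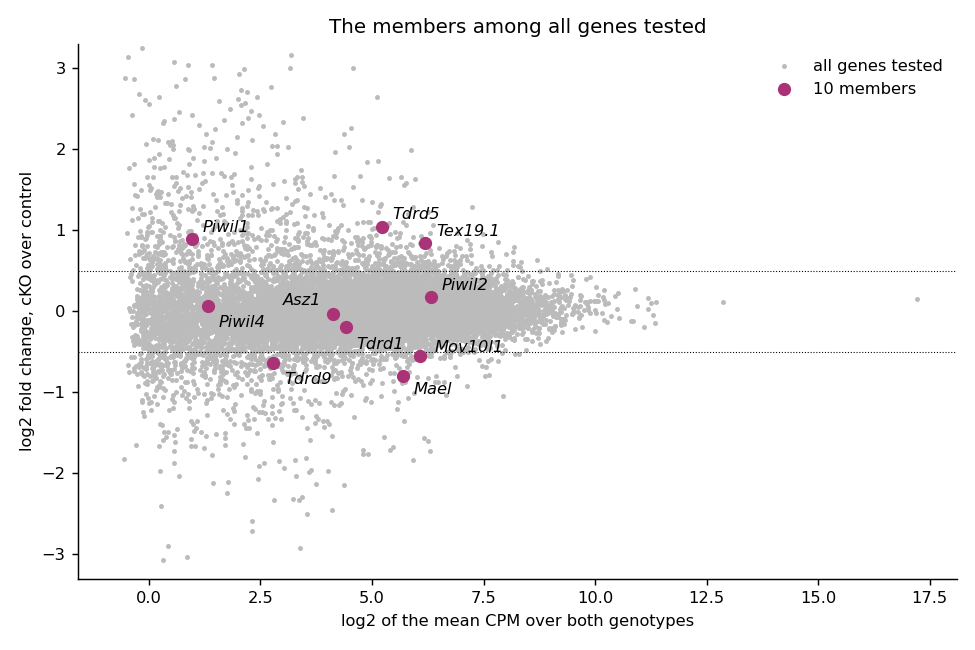
Log2 fold change of *Bmpr1a*-cKO over control against log2 of the mean CPM over both genotypes, with 1 grey point per gene tested and the 10 members in purple. The 6 members that were DEGs lie above 0.8 or below -0.5, the other 4 lie between -0.20 and 0.18, and 35 genes beyond 3.3 in either direction are outside the plotted range.

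The Piwi genes encode the proteins that carry piRNAs. *Piwil2* (MILI; chr14:70372477-70429383, minus strand) encodes the Piwi protein of nuage and was by far the most expressed of them. It had 75.3, 75.0, 87.0 and 62.9 CPM in control libraries 1 to 4 and 65.6, 82.8, 89.4 and 99.0 CPM in *Bmpr1a*-cKO libraries 1 to 4. The ranges overlapped, with *Bmpr1a*-cKO libraries 3 and 4 above all controls, and the Log2FC of 0.18 (95% interval -0.06 to 0.41, FDR = 0.262 by edgeR) did not reach the size of the rise seen for *Tdrd5*. With 1 library left out the edgeR FDR ran from 0.029 to 0.658. The lowest was without *Bmpr1a*-cKO library 1, where the Log2FC of 0.27 was short of the fold threshold.

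*Piwil4* (MIWI2; chr9:14696230-14740733, minus strand) encodes the nuclear Piwi protein that directs DNA methylation in fetal male germ cells. It was weakly expressed, with 2.47, 2.21, 2.997 and 2.27 CPM in control and 1.55, 2.45, 2.93 and 3.21 CPM in *Bmpr1a*-cKO libraries. Library 1 of the mutant was the lowest and library 4 the highest of all 8. Its Log2FC was 0.07 with a 95% interval of -0.41 to 0.55 (FDR = 0.849 by edgeR). The gene overlaps Gm10706 and Gm15586 on the opposite strand, and 1.64% of its 50-base words were shared with Gm10706.

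*Piwil1* (MIWI; chr5:128702524-128755474, plus strand) encodes the Piwi protein of pachytene and postmeiotic male germ cells and had the lowest level of the 10 members in control ovaries. It was found at 1.64, 0.886, 1.40 and 1.58 CPM in control and at 1.67, 2.90, 2.62 and 2.93 CPM in *Bmpr1a*-cKO libraries, where 3 counts equal 0.189 to 0.358 CPM. All 4 mutant libraries were above all controls on TMM-normalised CPM, but library 1 of the mutant only just. Its 14 counts gave 1.67 CPM, and the 20 counts of control library 1 gave 1.64 CPM. Their order rests on the TMM factors and turns with library size alone. The Log2FC was 0.89 ± 0.247 (SE, FDR = 0.0135 by edgeR). The call rested on single libraries: leaving out *Bmpr1a*-cKO library 2 gave an FDR of 0.0504, and leaving out library 4 gave 0.0506, while over all left-out libraries it began at 0.00394.

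Tudor domain proteins bind Piwi proteins and build nuage. *Tdrd5* (chr1:156255296-156303664, minus strand), which is needed for nuage assembly and LINE1 repression in the testis, showed the largest change of the 10 members. It had 20.9, 21.3, 34.7 and 21.0 CPM in control libraries and 39.7, 51.6, 55.3 and 52.9 CPM in *Bmpr1a*-cKO libraries. Control library 3 stood well above the other 3 controls, and still the lowest mutant library exceeded it. Expression was 2.06-fold higher in the mutant (Log2FC = 1.05 ± 0.145 SE, FDR = 8.05e-05 by edgeR). The gene overlaps A430050A11Rik on its own strand and 4930518J20Rik on the opposite strand, neither of which had a row in the count files, and 1.8% of its 50-base words were shared with the latter.

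*Tdrd9* (chr12:111971559-112068854, plus strand) encodes an RNA helicase with a Tudor domain that works with the nuclear branch of the pathway, and it changed the other way. It stood at 7.81, 7.62, 8.99 and 8.90 CPM in control and 5.72, 4.76, 6.49 and 4.84 CPM in *Bmpr1a*-cKO libraries. The genotypes did not overlap, with the lowest control more than 1 CPM above the highest mutant library. Its Log2FC was -0.63 ± 0.139 (SE, FDR = 0.00316 by edgeR).

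*Tdrd1* (chr19:56826209-56870012, plus strand), a scaffold of nuage that binds the protein encoded by *Piwil2*, had 21.0, 21.4, 28.5 and 20.2 CPM in control and 16.8, 19.19, 21.4 and 21.4 CPM in *Bmpr1a*-cKO libraries. Control library 3 was again the highest, and of the other controls library 2 was level with the highest mutant libraries and libraries 1 and 4 lay within the mutant range. The Log2FC was -0.20 (95% interval -0.44 to 0.05, FDR = 0.216 by edgeR). The 3 Tudor genes thus went different ways, with *Tdrd5* upregulated, *Tdrd9* downregulated and *Tdrd1* without a call.

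Of the cofactors, *Mael* (chr1:166201201-166238747, minus strand) encodes Maelstrom, a protein of nuage required for transposon silencing and for male meiosis. It was at 57.4, 63.6, 78.7 and 65.0 CPM in control and at 24.8, 38.2, 44.2 and 43.7 CPM in *Bmpr1a*-cKO libraries. Every mutant library lay below every control, the nearest pair being more than 10 CPM apart. Expression in the mutant was 0.576 of control (Log2FC = -0.80 ± 0.138 SE, FDR = 0.000507 by edgeR).

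*Mov10l1* (chr15:88982909-89055152, plus strand) encodes the RNA helicase that binds piRNA precursors and feeds them into processing. It had 72.7, 75.1, 94.1 and 79.7 CPM in control and 41.4, 50.8, 59.5 and 67.3 CPM in *Bmpr1a*-cKO libraries. The genotypes did not overlap, and the mutant libraries were spread wider in proportion than the controls. The Log2FC was -0.54 ± 0.119 (SE, FDR = 0.00296 by edgeR), close to the fold threshold. Without control library 3 it was -0.47 (FDR = 0.0095) and without *Bmpr1a*-cKO library 1 it was -0.44 (FDR = 0.0028), both past the FDR but short of the fold that defines a DEG.

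*Asz1* (GASZ; chr6:18050964-18109061, minus strand) encodes the mitochondria-bound protein on which nuage is anchored. It was measured at 14.6, 20.2, 20.1 and 16.8 CPM in control and 15.3, 15.02, 17.2 and 21.7 CPM in *Bmpr1a*-cKO libraries. The genotypes were interleaved. Under TMM scaling the 95% interval of the Log2FC, -0.32 to 0.25 around -0.03, excluded changes of the size seen for *Mael* or *Tdrd5* (FDR = 0.877 by edgeR). This depends on the scaling, since with germ cell markers as the scale the Log2FC was -0.54.

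*Tex19.1* (chr11:121146143-121148319, plus strand) encodes a germ cell and placental protein that restrains retrotransposons and binds the ubiquitin ligase UBR2, and it lies outside the piRNA machinery proper. It had 48.5, 52.3, 68.7 and 40.3 CPM in control and 65.7, 87.4, 115 and 105 CPM in *Bmpr1a*-cKO libraries. Control library 3 was slightly above *Bmpr1a*-cKO library 1, so this was the only one of the 6 DEGs whose genotypes overlapped on TMM-normalised CPM. The 1.80-fold difference (Log2FC = 0.84 ± 0.159 SE) had an FDR of 0.00098 by edgeR.

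Its paralogue *Tex19.2* rose further. It had 5.02, 4.69, 6.46 and 4.67 CPM in control and 13.6, 14.3, 19.9 and 17.4 CPM in *Bmpr1a*-cKO libraries, with no overlap (Log2FC = 1.65, FDR = 1.46e-06 by edgeR). *Tex19.1* and *Tex19.2* shared 2.67% of the 50-base words of *Tex19.1*, and the assignment of reads between them was not tested.

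**Figure D2:**
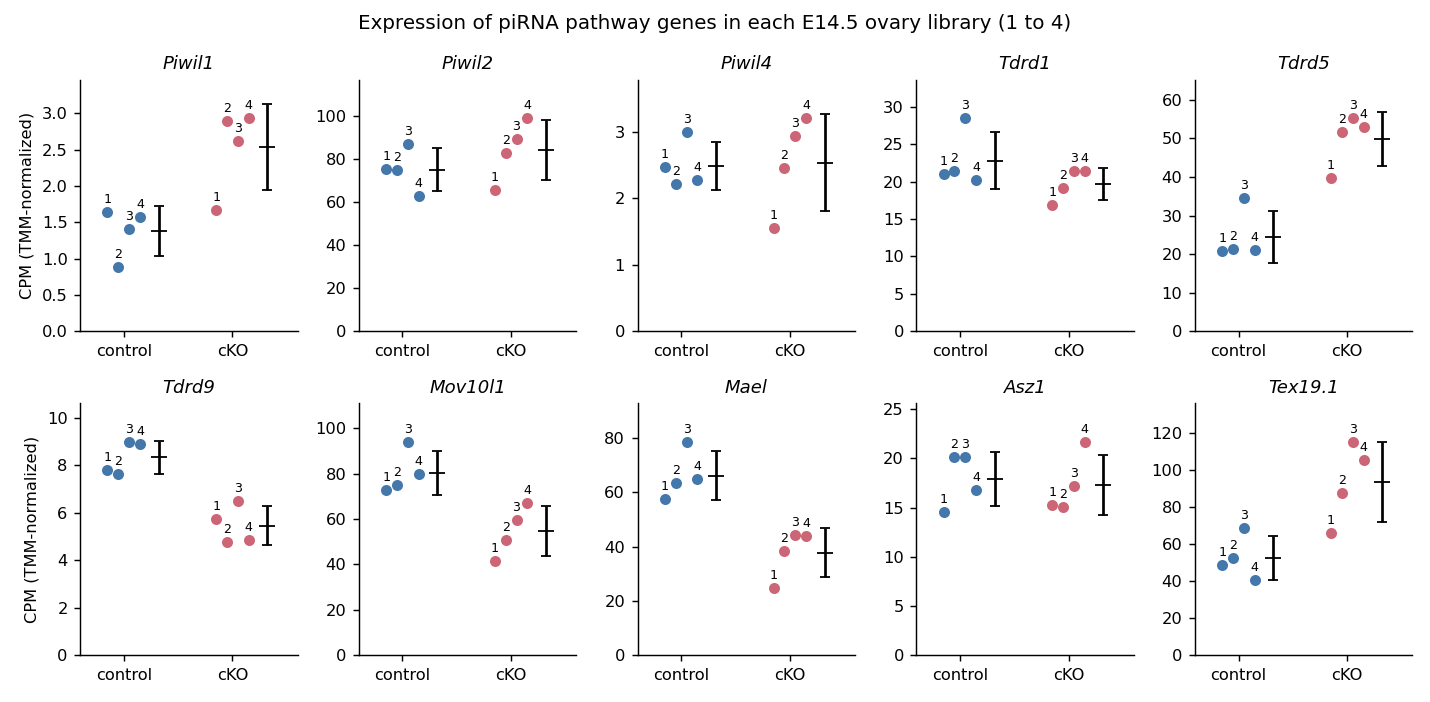
CPM of each of the 10 genes in every library, numbered 1 to 4 within control and *Bmpr1a*-cKO, with the group mean as a line and the SD of 4 libraries as a bar. *Tdrd5* lies wholly above and *Mael*, *Tdrd9* and *Mov10l1* wholly below the controls, and *Tex19.1* overlaps by 1 library. *Piwil1* lies above the controls by a small margin that rests on the TMM factors.

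In all, the libraries of the genotypes did not overlap for 5 of the 10 members, where this held for 27.9% of all genes tested. For 2 members all mutant libraries were above all controls, as for 16.1% of all genes, and for 3 they were all below, as for 11.7%. The 2 include *Piwil1*, whose lowest mutant library and highest control were nearly level and turn order with library size alone.

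The order of the levels differed between the genotypes. Per kilobase of exon, *Mael* led in control ovaries with 38.2 ± 5.18 CPM per kb, before *Tex19.1* with 28.02 ± 6.36, *Mov10l1* with 19.22 ± 2.30 and *Piwil2* with 14.2 ± 1.86 (SD, n = 4). In the *Bmpr1a*-cKO, *Tex19.1* led with 49.9 ± 11.6 CPM per kb and *Mael* followed with 21.8 ± 5.22, and these ranges did not overlap. *Mov10l1*, at 13.1 ± 2.67 CPM per kb, came after *Piwil2*, at 15.9 ± 2.66. *Tdrd5* went from 3.52 ± 0.982 to 7.19 ± 1.00 CPM per kb. The lowest levels in both genotypes were those of *Tdrd9*, *Piwil4* and *Piwil1*, between 0.316 and 1.54 CPM per kb on average.

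Several neighbours in this order had overlapping ranges. In control the ranges of *Mael* and *Tex19.1*, of *Tex19.1* and *Mov10l1*, of *Asz1* and *Tdrd1* and of *Tdrd1* and *Tdrd5* overlapped, although the higher gene was the higher in 4 of 4 libraries in each of these pairs. In the *Bmpr1a*-cKO the ranges of *Mael* and *Piwil2*, of *Piwil2* and *Mov10l1*, of *Tdrd5* and *Asz1* and of *Piwil1* and *Piwil4* overlapped, and the higher gene was the higher in 4 of 4 libraries except for *Tdrd5*, which was above *Asz1* in 3 of 4. With the longest transcript in place of all exons as the length, the control level of *Tdrd5* was 6.50 CPM per kb, above the 4.39 of *Tdrd1*, so that their order turned, and that of *Piwil4* 0.753 CPM per kb.

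**Figure D3:**
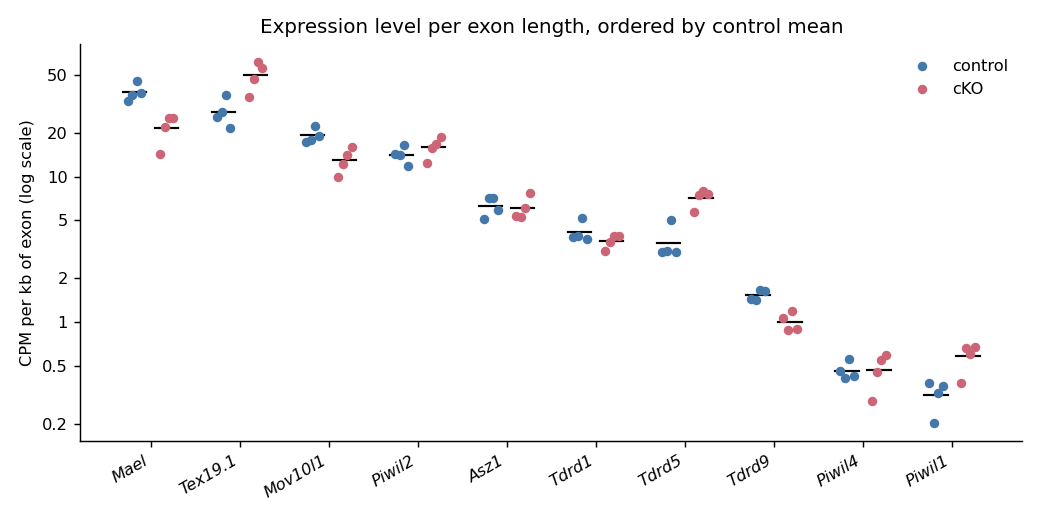
CPM per kilobase of exon on a log scale for each gene, ordered by its control mean, with 1 point per library (4 control and 4 *Bmpr1a*-cKO) and the group mean as a line. *Tex19.1* replaces *Mael* at the top in the mutant, and *Piwil1* and *Piwil4* lie lowest in both genotypes.

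Within a genotype, many members shared an extreme library. Control library 3 was the highest control for 8 of the 10 members, the exceptions being *Piwil1* and *Asz1*, and *Bmpr1a*-cKO library 1 was the lowest mutant library for 8 of 10. *Bmpr1a*-cKO library 4 was the highest mutant library for 6 members and library 3 for the other 4. The lowest control was library 1 for 4 members and library 2 or 4 for 3 members each. How many of all genes tested had the same extreme libraries was not counted. The order is therefore not shown to be particular to the members. The germ cell markers had the same extremes, with the highest control sum in library 3 and the lowest mutant sum in library 1, and their part in this order was not tested. A ratio of 2 genes within a library does not depend on the scaling of that library. The count of *Mael* divided by that of *Tdrd5*, a pair chosen after their values were seen, was 2.75, 2.99, 2.27 and 3.10 in control libraries and 0.625, 0.741, 0.799 and 0.827 in *Bmpr1a*-cKO libraries. *Mael* thus had more counts than *Tdrd5* in every control library and fewer in every mutant library.

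The directions were next followed under other scalings of the libraries, because these genes are transcribed mainly in germ cells, whose summed markers had a ratio of 1.40 between the genotypes. Scaling each library to its germ cell markers moved the median Log2FC of all genes to -0.49. It made 6909 of the 14249 genes tested DEGs, 6619 of them lower. A call of lower on that scale is therefore no trait particular to these genes. The 6 markers used include 3 that were DEGs themselves. On that scale *Tdrd5* was still upregulated, with a Log2FC of 0.56 (FDR = 0.00663 by edgeR), and *Mael* fell to -1.32, *Tdrd9* to -1.12 and *Mov10l1* to -1.06. *Tdrd1*, at -0.69 (FDR = 0.00151), and *Asz1*, at -0.54 (FDR = 0.0132), became DEGs, and *Tex19.1*, at 0.35 (FDR = 0.0768), and *Piwil1*, at 0.35 (FDR = 0.299), were lost. *Piwil2* and *Piwil4* turned to -0.33 and -0.47 without passing.

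Scaling to *Ddx4* alone, a choice made after the data had been seen, shifted the median by only -0.09. *Ddx4* is itself a nuage gene and had 128, 151, 168 and 121 CPM in control and 106, 167, 159 and 179 CPM in *Bmpr1a*-cKO libraries (Log2FC = 0.11, FDR = 0.561 by edgeR). Under it *Tdrd5* (0.95), *Tex19.1* (0.74) and *Mael* (-0.93) remained DEGs, whereas *Piwil1* (0.72, FDR = 0.299), *Tdrd9* (-0.71, FDR = 0.112) and *Mov10l1* (-0.66, FDR = 0.0647) did not pass. The directions of these 6 genes were the same under all 6 scalings tried.

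**Figure D4:**
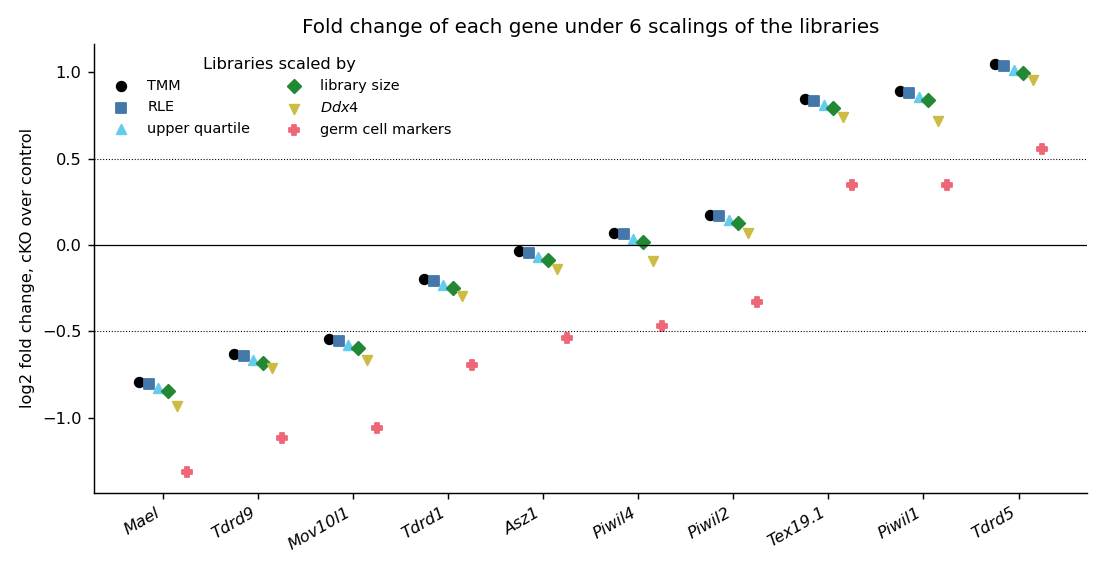
Log2 fold change of *Bmpr1a*-cKO over control for each gene under 6 scalings of the libraries (TMM, RLE, upper quartile, library size, germ cell markers and *Ddx4* alone), with 1 marker per scaling. *Tdrd5*, *Tex19.1* and *Piwil1* stay above 0 and *Mael*, *Tdrd9* and *Mov10l1* below 0 under each, and germ cell markers give the lowest value for every gene. A scaling shifts all genes by a similar amount, and no shift here was large enough to turn these signs.

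Changes in both directions were also found in further genes of the pathway. This list and that of general repressors below were also chosen with earlier results of these data known, so their shares are descriptions. Of 27 other genes of piRNA biogenesis, nuage and their control, 25 were in the files and 22 were tested. Among these, 9 were DEGs, where 10.2% of all genes tested were, with 4 upregulated (6.11% of all genes) and 5 downregulated (4.06% of all genes), and the median Log2FC was -0.08. *Tdrd6*, *Dnmt3l* and *Nanos2*, which are known from later or male germ cells, had at most 8 counts in any library and were not tested.

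*Tdrd12*, a helicase with Tudor domains that acts in secondary piRNA production, rose most. It had 9.70, 12.6, 14.4 and 12.1 CPM in control and 29.1, 36.1, 37.5 and 38.1 CPM in *Bmpr1a*-cKO libraries, and its lowest mutant library exceeded its highest control by a wide margin (Log2FC = 1.54, FDR = 2.55e-07 by edgeR). The other upregulated genes were *Morc1* (Log2FC = 0.95), a nuclear repressor of transposons in male germ cells, *Wdr77* (0.74), the partner of the arginine methyltransferase PRMT5, and *Pnldc1* (0.61), which trims piRNA 3′ ends and whose genotypes overlapped. *Prmt5*, which methylates the arginines of Piwi proteins that Tudor domains read, had a Log2FC of 0.39 (FDR = 0.000196 by edgeR), below the fold threshold. *Exd1* (0.46, FDR = 0.0385 by edgeR) and, in the other direction, *Gpat2* (-0.49, FDR = 0.0397) also passed the FDR but not the fold.

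Among the genes that fell, *Ddx43*, a DEAD-box helicase of germ cells, changed most. It had 8.63, 4.52, 6.28 and 8.27 CPM in control and 1.43, 2.16, 2.93 and 3.48 CPM in *Bmpr1a*-cKO libraries, without overlap (Log2FC = -1.44, FDR = 0.000479 by edgeR). *Btbd18*, which is needed for transcription of pachytene piRNA precursors in the testis, had a Log2FC of -1.15, *Ddx25*, a helicase of the chromatoid body, -0.82, and *Tdrd7*, a Tudor protein of the same structure, -0.55. *Tex15*, which acts in the nucleus in piRNA-directed silencing and is also required in meiosis, was the most expressed of the 5, with 243, 206, 252 and 306 CPM in control and 120, 128, 156 and 177 CPM in *Bmpr1a*-cKO libraries. All mutant libraries were again below all controls (Log2FC = -0.79, FDR = 0.000201 by edgeR).

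General repressors of retrotransposons, most of which are also transcribed in somatic cells, were examined next. Of 21 such genes, all tested, 3 were DEGs, where 10.2% of all genes tested were, and 8 had an FDR below 0.05, where 29.8% of all genes did. *Tex19.2* and *Dnmt3b*, a de novo DNA methyltransferase (Log2FC = 0.63, FDR = 3.67e-05 by edgeR), were upregulated, and *Mphosph8*, a subunit of the HUSH complex (-0.55, FDR = 0.000944), was downregulated. *Dnmt3b* was at 17.9 to 22.4 CPM in control and 30.3 to 31.8 CPM in *Bmpr1a*-cKO libraries, and *Mphosph8* at 115 to 120 CPM and 57.9 to 94.6 CPM. The median Log2FC of the 21 was -0.02, and the median absolute value, 0.19, was near the 0.17 of all genes tested, while it was 0.42 for the 22 other piRNA pathway genes.

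**Figure D5:**
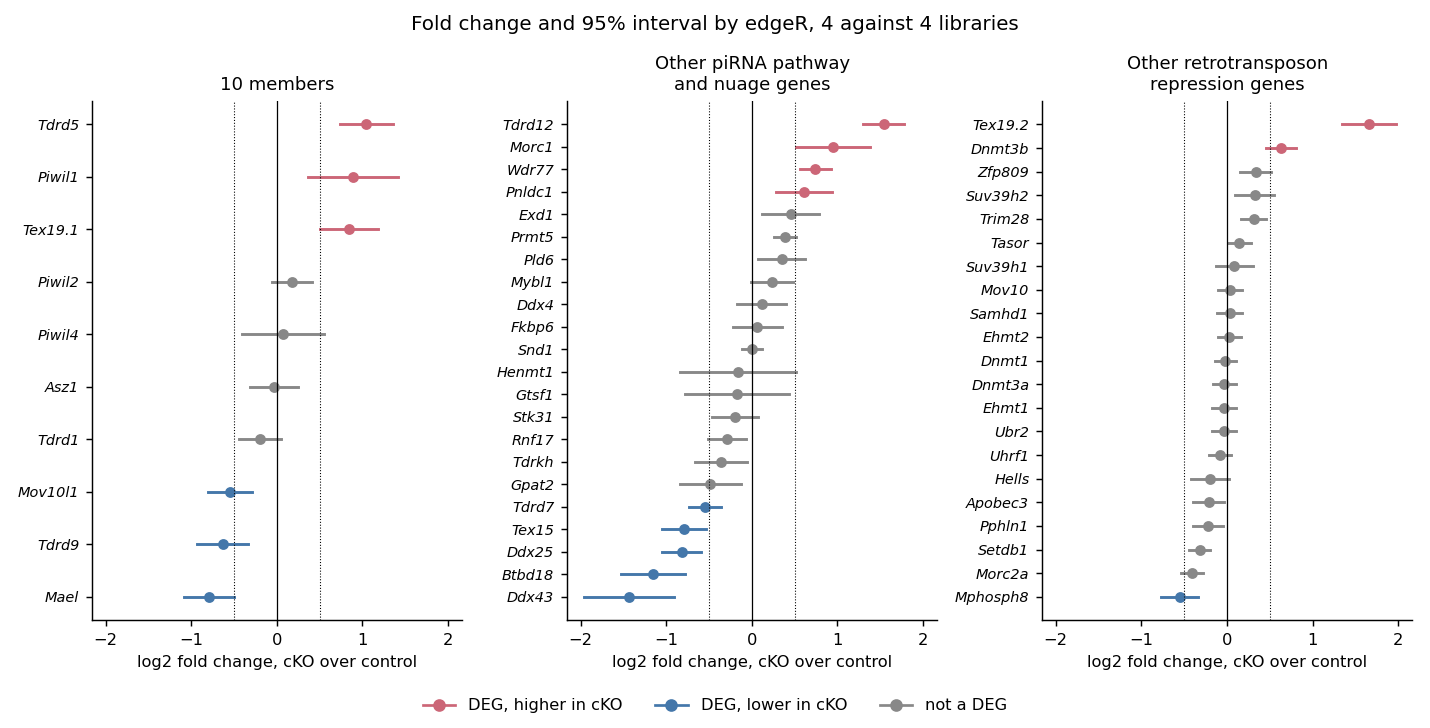
Log2 fold change of *Bmpr1a*-cKO over control with its 95% interval by edgeR (4 against 4 libraries) for the 10 members, the 22 other piRNA pathway genes tested and the 21 other retrotransposon repressors. DEGs are coloured by direction and run from -1.44 for *Ddx43* to 1.65 for *Tex19.2*.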

How the data were processed

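RNA-Seq libraries were prepared with a strand-specific kit from pools of 2 ovary pairs, with 8 embryos of each genotype from 6 litters. Control embryos were littermates of the mutant embryos. The authors trimmed reads with Trimmomatic 0.39 and mapped them to mm10 with STAR 2.5.2, and deposited unnormalised counts per gene symbol for each library. The annotation and strand setting of the counting are not given in the sources used here, so overlapping genes may exchange reads. The authors also deposited a CPM table, a signal that equals each count over a single factor for its library. It held 14244 genes and served only as an alternative filter.

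These counts were tested here with edgeR 4.0.16 in R 4.3.3, using filterByExpr, TMM scaling and a two-sided quasi-likelihood test of genotype, with FDR by Benjamini-Hochberg over every gene that passed the filter. The script was tested on simulated data. Genes were placed on mm10 with GENCODE, and levels per kb used the union of exons. Promoters came from a RefSeq table. The 10 members and all lists were chosen with earlier results of these data known. Every member is named, as are DEGs of the other lists. No library was left out of the main comparison. No library repeated another within sampling noise. P-values cover the spread between pools, in which animal, pooling and library preparation are not separated, and floors cover counting error only.

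As alternatives served limma-voom 3.58.1, DESeq2 1.42.0 and the edgeR likelihood ratio test; RLE, upper-quartile, library size, germ cell marker and *Ddx4* scaling; other filters; the replicate number as a block; FDR alone; the longest transcript as length; and each library left out.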

Additional observations from a re-analysis of the deposited data

Results flagged for a closer look

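Of 44 groups of 4 libraries examined for 1 library far from the rest, 2 were picked out, and chance picks out about 1 in 20. Both were control library 3. For *Tdrd5*, its 34.7 CPM lay apart from the other controls by 0.973 of the range of the group. For *Tdrd1*, its 28.5 CPM lay apart by 0.851 of the range. The same library had the highest summed germ cell markers of the controls (803 CPM). Without it *Tdrd5* was still a DEG, and *Tdrd1* was not a DEG with or without it.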

How the results depend on the processing

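The calls of *Tdrd5* and *Mael* held under all 21 alternatives, and the other calls changed as follows. With germ cell markers as the scale, 6909 of the 14249 genes tested were DEGs (290 upregulated, 6619 downregulated). They held 6 of the 10 members (1 upregulated, 5 downregulated), 11 of the 22 other piRNA pathway genes and 11 of the 21 retrotransposon repressors. For these 2 other lists the counts are near the share over all genes. Scaling to *Ddx4* alone, added after the data had been seen, gave 725 DEGs among the same 14249 genes, with 3 members, 5 other piRNA pathway genes and 1 repressor. FDR alone gave 4242 genes, with 8 repressors. Library size alone gave 744 upregulated and 722 downregulated DEGs, against 871 and 578 in the main comparison.

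Small fold changes turned direction without a call: *Piwil2* was at -0.33 with germ cell markers, *Piwil4* at -0.47 with germ cell markers, -0.095 with *Ddx4* and between -0.083 and 0.21 with 1 library left out, and *Asz1* between -0.18 and 0.035 with 1 library left out, above 0 without control library 2 or 3 or mutant library 1 or 2. With 1 library left out, the DEGs numbered 1288 to 1627, the members among them 5 to 6, other piRNA pathway genes 8 to 12, and repressors 2 to 3. With the longest transcript as length, control levels were 0.753 CPM per kb for *Piwil4*, 6.50 for *Tdrd5*, 1.73 for *Tdrd9* and 7.64 for *Asz1*.

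Libraries with the same number correlated by 0.198, 0.161, 0.108 and -0.0871 in their deviations from the group means. For *Bmpr1a*-cKO libraries 1, 2 and 3 the control of the same number correlated best, and for library 4 it was control 3 (0.182). The controls were littermates, but whether the numbers mark shared litters is not stated. A pairing is therefore possible, and the main comparison did not use one. The replicate number as a block gave 1457 DEGs (875 upregulated, 582 downregulated), with 6 members, 9 other piRNA pathway genes and 3 repressors, and changed no call of a member. With the block the edgeR FDR of *Mael* went from 0.000507 to 4.86e-06 and that of *Piwil1* from 0.0135 to 0.0182. Depth limited *Piwil1* and *Piwil4* most, at 0.886 to 3.21 CPM against the 0.189 to 0.358 CPM of 3 counts.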
